A study of Sus scrofa with 2 samples.

Results

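Integrin and cadherin adhesion receptors were described across the cell classes of pig skeletal muscle. The genes were all those whose symbol in the deposited feature list begins with ITGA, ITGB, CDH or PCDH, with ITGB4 left out, which gave 71 of 21301 features. They comprised 16 integrin alpha genes, 7 integrin beta genes, 22 CDH genes, 5 CDHR genes, 9 clustered and 9 non-clustered protocadherins, and 3 genes matched only by name (ITGB1BP1, ITGB1BP2 and ITGBL1). Neither the 3 nor the CDHR genes are classical receptors of these families.

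The study deposited 2 single-cell RNA libraries from the longissimus dorsi, the long back muscle, of piglets. The breeds were Yorkshire and the Guangdong small-eared spotted pig, GDSS below, and the labels describe both libraries as intramuscular vascular stem cells at P0, a stage or passage that the labels do not define. Red blood cells and dead cells had been removed, and no treatment or genetic change separates the groups. Since each breed has 1 library and no replicate, breed, animal, preparation and library cannot be told apart, no test between breeds was made, and the intervals below are 95% intervals for counting error only. The number of animals behind each library was not given in the sources used here.

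Integrins are pairs of an alpha and a beta chain that hold cells to laminin, collagen, fibronectin and other matrix proteins, and some bind receptors on other cells. Classical cadherins bind the same cadherin on a neighbouring cell and connect to actin through catenins, while protocadherins are related proteins with weaker adhesion of their own. In muscle, laminin-binding integrins anchor fibres and satellite cells to the basement membrane, and VE-cadherin seals the junctions of vessels.

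After filtering, 10582 GDSS cells and 12667 Yorkshire cells remained, with medians of 2873.5 and 3003 transcript molecules (UMIs) per cell. Each cell was placed in a class by counting markers, none of them an integrin or cadherin. Stromal cells numbered 7607 in GDSS and 1886 in Yorkshire, satellite cells 395 and 4546, endothelial cells 194 and 1482, mural cells (smooth muscle and pericytes) 270 and 618, glia 254 and 288, macrophages 244 and 96, and tenocytes 425 and 330. The labelled stem cell preparation therefore held all 7 classes, and 1193 and 3421 cells stayed outside them. Cells of a class carried medians of 2 to 11 of its own markers and 0 to 3 of any other list, except that tenocytes carried 8 stromal markers. Satellite cells carried as many stromal as own markers, with medians of 2 and 2 in GDSS and 3 and 3 in Yorkshire. GDSS glia likewise carried 3 own and 3 stromal markers, and Yorkshire glia 5 and 3. The satellite gate was the loosest, with 51.4% of GDSS and 46.2% of Yorkshire satellite cells exactly at the gate, and 38.2% and 22.2% of glia were at theirs. The libraries shared 47 cell barcodes, 37 of them among the kept cells.

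Levels are UMIs per 1000000 UMIs summed over all cells of a class (CPM), and each is compared only with the same gene in other classes or in the other library. Of the 71 genes, 70 had a UMI in the kept cells and CDH9 had none. The 48 genes with at least 50 UMIs over all class sums were compared between classes. CDH4 with 57 UMIs and ITGAL with 59 lay just over this minimum, and CDHR1 with 40 and PCDHGB5 with 44 just under it. The 23 genes under it were CDH9, 10 other CDH genes of which CDH7 had the most UMIs with 39, CDHR1, CDHR2, CDHR3, CDHR5, ITGB6 and 7 clustered protocadherins.

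A gene was given a leading class where the same class had the highest CPM in both libraries and exceeded the next class at least 2-fold in both. This held for 23 of the 48 genes, or 47.9%, against 16.5% of all 12690 genes compared. The alternatives ended the call of CDH1, CDH13, CDH24, ITGA2B, ITGA3, ITGA10, ITGAL, ITGB7, PCDH8 or PCDH10 in at least 1 setting each. For 14 of the 23, the interval of the fold over the next class lay above 2 in both libraries. Across all 48, the highest class was the same in both libraries for 40. Glia led for 7 genes (3.44% of all genes), mural cells for 4 (2.64%), macrophages for 4 (3.78%), endothelial cells for 3 (3.07%), satellite cells for 2 (1.25%), tenocytes for 2 (1.02%) and stromal cells for 1 (1.26%).

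**Figure D1:**
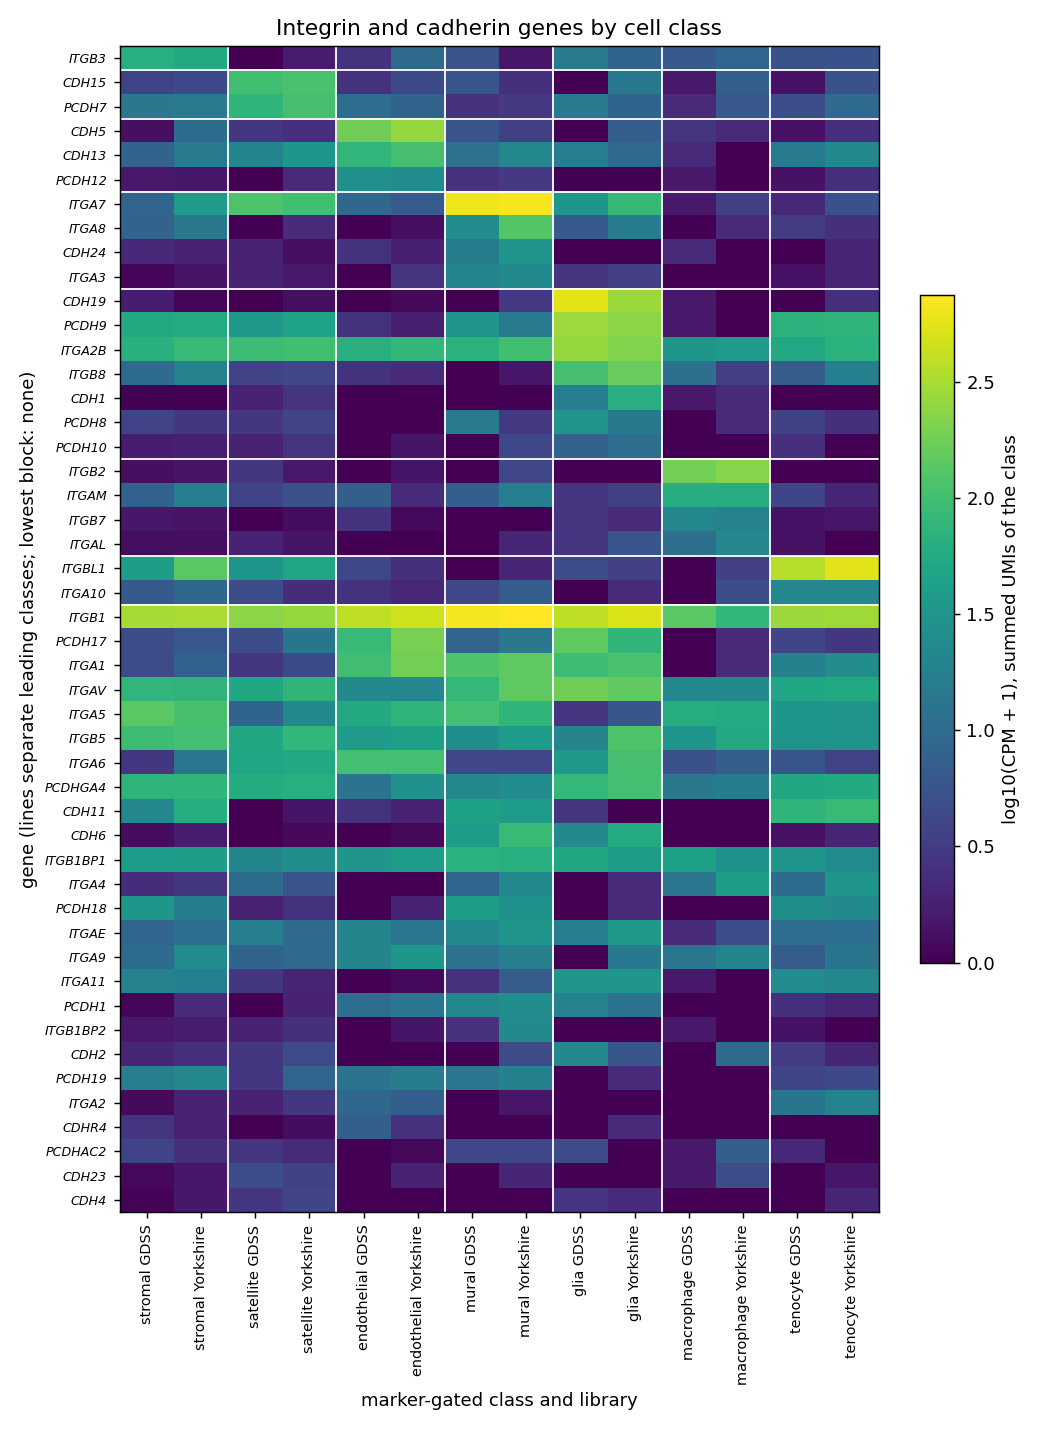
Level of each compared gene in the 7 classes of both libraries, as log10(CPM + 1), with genes as rows and the class sums of GDSS and Yorkshire as columns. CDH19 and ITGB8 stand out in glia, CDH5 in endothelial cells, ITGA7 in mural cells and ITGB2 in macrophages of both libraries, while ITGB1 is present in all 7 classes.

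Among the integrins that bind laminin, ITGA7 encodes the alpha chain best known from muscle. Its level was 624 CPM in GDSS and 682 in Yorkshire mural cells. Satellite cells followed with 117 and 99.4 CPM, so that mural cells exceeded them 5.35-fold in GDSS (4.37 to 6.60) and 6.86-fold in Yorkshire (6.37 to 7.39). After each cell was thinned to 1500 UMIs, 60.4% of GDSS and 60% of Yorkshire mural cells held an ITGA7 UMI, against 1.37% and 1.12% of endothelial cells. The other alpha chain of this kind with a leading class was ITGA3, at 18.5 CPM in GDSS and 22.3 in Yorkshire mural cells, with 2.47 CPM or less in every other class.

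ITGA6, a laminin receptor chain that pairs with ITGB1 or ITGB4, had no leading class. It stood at 103 CPM in endothelial cells of both libraries and at 48.0 and 53.4 CPM in GDSS and Yorkshire satellite cells. Glia held 33.7 CPM in GDSS and 106 in Yorkshire, so that in Yorkshire glia and endothelial cells were level. The beta chain ITGB4, outside the gene set, was at 95.7 and 139 CPM in glia and at 27.3 and 33.8 CPM in endothelial cells of GDSS and Yorkshire. It was at 0.94 and 0.85 CPM in satellite cells, where ITGA6 was well counted.

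The collagen receptor chains ITGA1, ITGA2, ITGA10 and ITGA11 were spread over different classes. ITGA1 was counted in endothelial cells (98.1 CPM in GDSS and 181 in Yorkshire), mural cells (119 and 146 CPM) and glia (94.0 and 109.7 CPM). In these 3 classes the GDSS intervals overlap each other, and tenocytes came next with 17.2 and 25.4 CPM. ITGA10 was led by tenocytes, at 20.5 CPM in GDSS and 20.1 in Yorkshire, which was 3.70-fold (2.66 to 5.09) and 2.46-fold (1.62 to 3.71) above stromal cells. ITGA2 was also highest in tenocytes, with 11.9 and 18.2 CPM, but endothelial cells held 8.04 CPM in GDSS and 6.42 in Yorkshire. ITGA11 had similar levels in glia (30.1 and 30.8 CPM), tenocytes (23.5 and 20.1 CPM) and stromal cells (17.8 and 16.2 CPM). ITGA1 and ITGA2 are adjacent on the pig chromosome in the RefSeq annotation of Sscrofa11.1, and of 8 adjacent pairs among the 62 genes found there it was the only pair in which both passed the UMI minimum.

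The receptors for fibronectin, vitronectin and related ligands followed other classes. ITGB3, the beta chain that pairs with the alpha chains ITGAV and ITGA2B, was led by stromal cells at 63.0 CPM in the GDSS and 56.5 CPM in the Yorkshire library. This was 4.44-fold (2.25 to 10.3) above glia in GDSS and 6.33-fold (4.80 to 8.51) above endothelial cells in Yorkshire. ITGA5, the fibronectin receptor chain, was also highest in stromal cells (135 and 109 CPM), but mural cells held 102 and 73.9 CPM and endothelial cells 54.7 and 75.0 CPM. ITGAV was highest in glia, with 177 CPM in GDSS and 147 in Yorkshire. Mural cells were at 80.3 CPM in GDSS but 144 CPM in Yorkshire, level with Yorkshire glia. ITGB5, an ITGAV partner, was highest in stromal cells of GDSS (93.9 CPM) and in glia of Yorkshire (119.6 CPM).

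ITGA8 and ITGB8 each had a leading class. ITGA8, the nephronectin receptor chain, was led by mural cells with 24.7 CPM in GDSS and 125 in Yorkshire. The GDSS value was 3.40-fold (1.90 to 5.67) above stromal cells and the Yorkshire value 8.45-fold (4.75 to 16.6) above glia. ITGB8, which with ITGAV activates latent TGF-beta, was led by glia with 105 CPM in GDSS and 160.3 in Yorkshire, 9.90-fold (5.76 to 17.8) and 9.06-fold (7.06 to 11.6) above the next class.

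**Figure D2:**
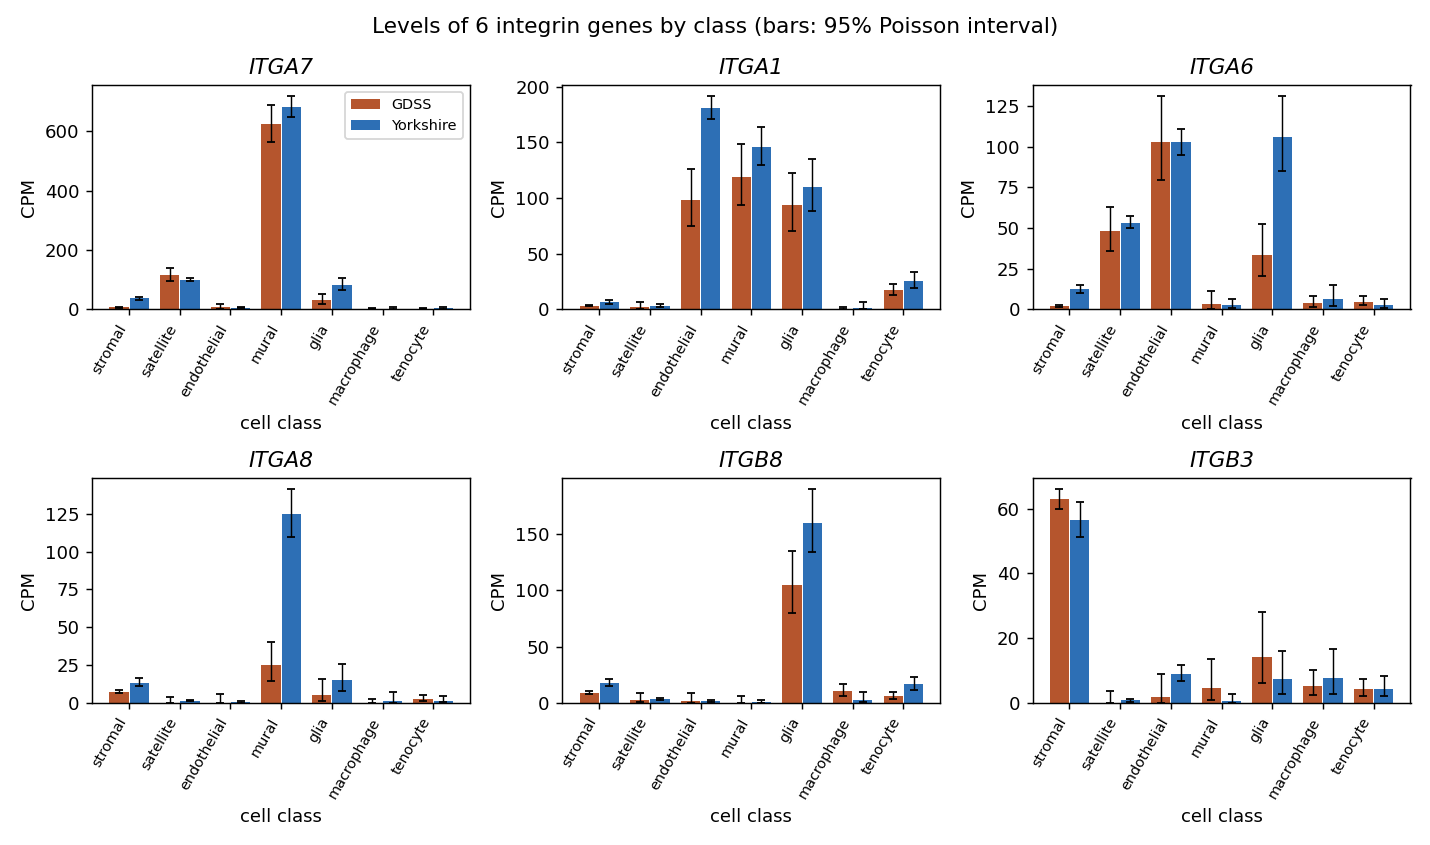
CPM of 6 integrin genes in each class, with 1 bar per library and 95% Poisson intervals. ITGA7 is highest in mural cells (624 and 682 CPM), ITGA1 in endothelial, mural and glial cells, ITGB8 in glia and ITGB3 in stromal cells, and ITGA8 in mural cells is lower in GDSS (24.7 CPM) than in Yorkshire (125 CPM).

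ITGB1, the chain shared by most of these receptors, was counted in all 7 classes. Its highest level was in mural cells, at 679.8 CPM in GDSS and 742 in Yorkshire. Glia held 397 and 504 CPM, endothelial cells 397 and 463 CPM, stromal cells 309 and 322 CPM, tenocytes 272 and 287 CPM, satellite cells 234 and 260 CPM, and macrophages 136 and 78.4 CPM. The order of the classes was the same in both libraries, except that glia and endothelial cells were level in GDSS. The adaptor ITGB1BP1 ranged from 19.7 to 66.4 CPM over all classes of both libraries. With ITGA2B, ITGAE, ITGAV, ITGB5 and PCDHGA4, these were the 7 genes whose level in all 7 classes of both libraries lay above 2 times the level estimated from free RNA. The muscle protein gene ITGB1BP2 was at 22.8 CPM in Yorkshire mural cells and at 1.54 CPM in the GDSS ones.

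ITGA2B encodes the platelet integrin alpha chain, yet it was counted in every class. Glia led with 259 CPM in GDSS and 212 in Yorkshire, 2.84-fold (2.18 to 3.71) and 2.12-fold (1.71 to 2.61) above the next class. The other 6 classes ranged from 32.3 to 91.2 CPM in GDSS and from 36.7 to 100.2 CPM in Yorkshire. Of 4 platelet markers, 3 were found in the files; GP1BA was at 0 in every class, and their summed level was 12.4 and 8.63 CPM in GDSS and Yorkshire glia and at most 34.0 CPM in any class.

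Macrophages led 4 integrin genes known from leukocytes, ITGB2, ITGAM, ITGB7 and ITGAL. ITGB2, the beta chain common to leukocyte integrins, was at 181 CPM in GDSS and 223 in Yorkshire macrophages, 96.1-fold (26.4 to 797) and 73.3-fold (33.0 to 202) above the next class. Its alpha partner ITGAM was at 59.9 and 60.7 CPM there, with stromal cells next at 6.88 CPM in GDSS and 15.8 in Yorkshire. Lower levels were seen for ITGB7, which pairs with ITGA4 or ITGAE, at 20.5 and 17.7 CPM. ITGAL, the alpha chain of the lymphocyte receptor LFA-1, was at 10.6 and 20.2 CPM, and its fold over glia in GDSS had an interval from 0.94 to 248. Of 6 T and NK cell markers in the files, 2 had UMIs in GDSS macrophages and 4 in Yorkshire ones, with a summed level of 146 and 384 CPM; CD3D and CD3G were at 0 in both, while the 3 neutrophil markers in the files summed to 294 and 204 CPM and the 2 mast cell markers to 186 and 147 CPM. The part of such cells in the ITGB2, ITGAM, ITGAL and ITGB7 levels was not tested. ITGA4 and ITGAE, also known from leukocytes, had no leading class. ITGA4, a receptor chain for VCAM1 and fibronectin, was highest in macrophages (12.3 and 39.2 CPM), closely followed by tenocytes (9.33 and 30.2 CPM). ITGAE, whose ligand is E-cadherin, was highest in mural cells of GDSS (21.6 CPM) and in glia of Yorkshire (34.5 CPM). ITGA9, a receptor chain for tenascin and VCAM1, was highest in endothelial cells with 19.3 and 31.6 CPM.

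Endothelial cells led CDH5 and CDH13, and satellite cells led CDH15. CDH5, or VE-cadherin, was at 175 CPM in GDSS and 262 in Yorkshire endothelial cells. The next classes lay 37.8-fold (12.6 to 186) lower in GDSS and 28.3-fold (22.3 to 36.6) lower in Yorkshire. After thinning, 23.3% of GDSS and 33.1% of Yorkshire endothelial cells held a CDH5 UMI, against 0.042% and 0.50% of stromal cells. CDH15, or M-cadherin, of myogenic cells, was at 101 CPM in GDSS and 112 in Yorkshire satellite cells, 21.7-fold (7.23 to 107) and 8.22-fold (4.59 to 16.5) above the next class. The 6 myofibre markers in the files summed to 2666 and 1645 CPM in GDSS and Yorkshire satellite cells, and their part in the levels there was not tested. CDH13, or T-cadherin, which is held by a lipid anchor and binds adiponectin, was at 77.2 and 104 CPM in endothelial cells, with satellite cells next at 18.8 and 31.1 CPM.

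CDH19, a cadherin of the Schwann cell lineage, had the narrowest distribution by fold among the 23 genes. Its level was 566 CPM in GDSS and 277 in Yorkshire glia, 799-fold (497.5 to 1366) and 137-fold (52.8 to 507) above the next class. After thinning, 48.3% of GDSS and 29.4% of Yorkshire glia held a UMI, against 0.056% and 0.055% of stromal cells. CDH1, or E-cadherin, which joins the membrane layers of myelinating Schwann cells, was at 15.96 CPM in GDSS glia and 61.6 CPM in Yorkshire glia, and at most 1.70 CPM elsewhere. CDH2, or N-cadherin, was highest in GDSS glia at 21.3 CPM, while Yorkshire glia held 4.93 CPM and Yorkshire macrophages 8.85 CPM.

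Of the other type II cadherins compared, CDH24 had a leading class, and CDH6 and CDH11 had none. CDH24 was led by mural cells at 15.4 CPM in GDSS and 30.4 in Yorkshire. CDH6 was highest in mural cells (37.1 and 86.6 CPM), followed by glia (21.3 and 57.9 CPM), and was below 1 CPM in the other 5 classes. CDH11, the cadherin of mesenchymal cells, was highest in tenocytes with 74.3 and 87.8 CPM. Next came mural cells in GDSS with 43.3 CPM and stromal cells in Yorkshire with 60.4 CPM. In macrophages of both libraries it had no UMI.

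Of the 9 non-clustered protocadherins, 3 were led by glia. PCDH9 was at 282 CPM in GDSS and 235 in Yorkshire glia, 3.95-fold (3.18 to 4.90) and 3.17-fold (2.55 to 3.94) above tenocytes. PCDH8 was at 30.1 and 13.6 CPM in glia, with an interval of its fold over mural cells in GDSS from 0.91 to 5.52. PCDH10 was at only 7.09 and 9.86 CPM there, and neither interval of its fold excluded 1. PCDH7 was instead led by satellite cells, at 74.3 CPM in GDSS and 104 in Yorkshire, 5.24-fold (2.53 to 12.5) and 7.22-fold (5.93 to 8.85) above the next class. PCDH12, a protocadherin of endothelium, was at 27.3 and 24.1 CPM in endothelial cells and at most 2.03 CPM elsewhere.

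PCDH17 changed places between libraries, with glia first in GDSS (144 CPM, against 86.9 CPM in endothelial cells) and endothelial cells first in Yorkshire (189.5 CPM, against 74.0 CPM in glia). PCDH18 was confined to mural cells (38.6 and 27.8 CPM), stromal cells (32.1 and 15.7 CPM) and tenocytes (25.8 and 22.1 CPM) at levels above 2 CPM. PCDH1 reached 20.1 and 24.3 CPM in mural cells, and PCDH19 was at 15.7 and 20.1 CPM in stromal cells. The clustered protocadherin PCDHGA4 ranged from 11.3 to 101 CPM over the classes and was highest in glia of both libraries. Genes of the gamma cluster share their last exons, so counts from the end of the transcript may not be assigned to 1 member, and this level is uncertain.

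ITGBL1, a secreted protein whose repeats resemble those of beta integrins, was led by tenocytes. Its level there was 357 CPM in GDSS and 548 in Yorkshire, 9.18-fold (8.39 to 10.0) and 4.02-fold (3.69 to 4.38) above stromal cells. A UMI was held by 36.8% and 49.8% of thinned tenocytes, against 0% and 0.15% of endothelial cells. Stromal cells, the next class, were not without it. Before thinning, 633 of 7607 GDSS and 355 of 1886 Yorkshire stromal cells held an ITGBL1 UMI.

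**Figure D3:**
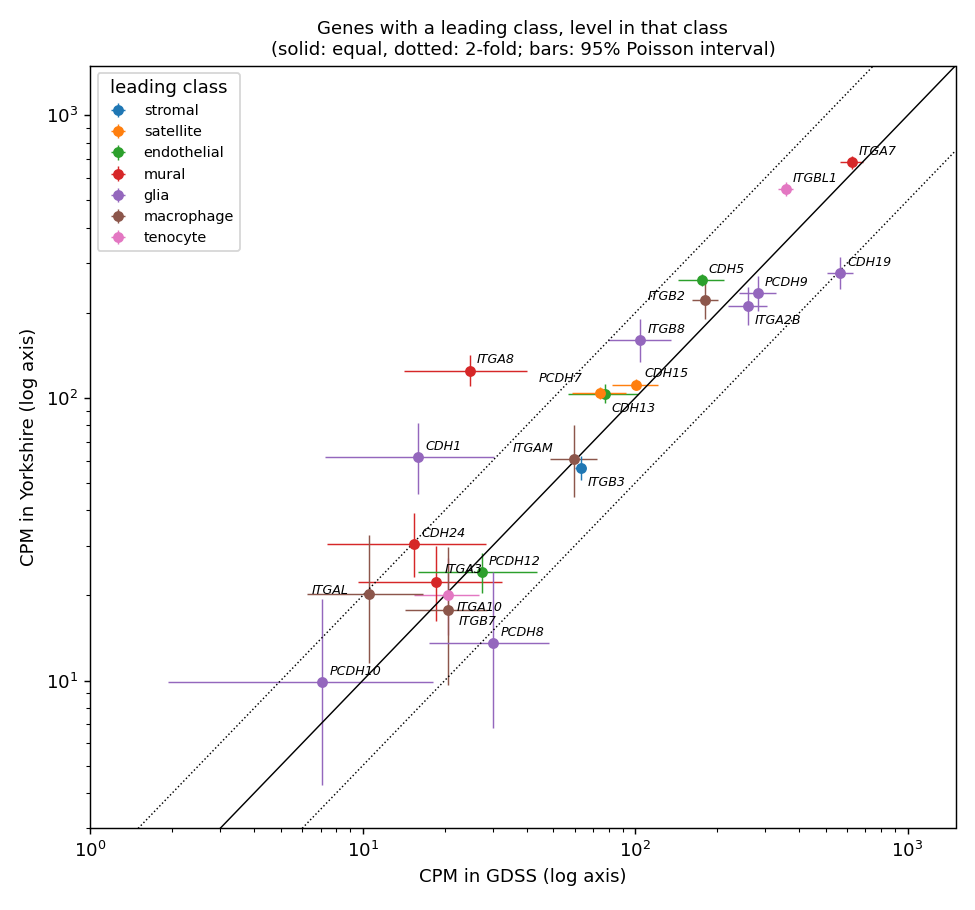
CPM of the 23 genes with a leading class in that class, GDSS on the horizontal and Yorkshire on the vertical log axis, with 95% Poisson intervals and colours for the class. Most points lie between the dotted 2-fold lines, ITGA8 and CDH1 lie above them on the Yorkshire side and CDH19 and PCDH8 just outside on the GDSS side.

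Other genes of the adhesion machinery were read from 4 lists, with genes used as class markers left out. Of 25 cytoplasmic partners of integrins, 8 had a leading class, or 32.0% against 16.5% of all genes, and 4 of these belonged to macrophages (3.78% of all genes). They included APBB1IP, which brings talin to the membrane, at 136 and 143 CPM, and the leukocyte kindlin FERMT3 at 145 and 129 CPM in GDSS and Yorkshire macrophages. Of 8 cadherin partners with enough UMIs, 2 had a leading class (25.0% against 16.5%), AFDN in endothelial cells (138 and 134 CPM) and PLEKHA7 in glia (17.7 and 38.2 CPM). Of 12 other junction genes, 7 had a leading class, or 58.3% against 16.5%, with 4 in glia (3.44% of all genes), among them CADM4 at 124 and 344 CPM and L1CAM at 72.7 and 85.1 CPM. Of 22 integrin ligands, 9 had a leading class, or 40.9% against 16.5%, with 4 in stromal cells (1.26% of all genes) and 3 in mural cells (2.64%). NPNT, the nephronectin that ITGA8 binds, was led by mural cells, as ITGA8 was, at 27.8 and 50.6 CPM, and so was VTN, the vitronectin that ITGB3 and ITGB5 receptors bind, at 66.4 and 46.1 CPM.

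Within stromal cells, the libraries were at least 2-fold apart for 8 of the 31 genes with at least 50 UMIs in that class, or 25.8%, against 9.31% of 10897 genes. Yorkshire was higher for 7 of them, or 22.6% against 6.84%, and GDSS for 1, against 2.48%. As log2 of GDSS over Yorkshire, the median ratio was -0.35 for the 31 genes and -0.19 for all genes. The stromal cells of the libraries were spread unevenly over clusters, which were made without a correction between libraries. There were 2702 GDSS and 36 Yorkshire cells in the largest of GDSS and 593 and 1072 in the largest stromal cluster of Yorkshire. Other stromal clusters were mixed, such as those with 769 GDSS and 405 Yorkshire cells and with 178 and 247.

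The stromal genes higher in Yorkshire were CDH5, ITGA6, ITGA7, ITGBL1, CDH11, ITGA9 and ITGAM. ITGBL1 was at 38.9 CPM in GDSS and 136 in Yorkshire, 3.51-fold apart (3.21 to 3.83). CDH11 was at 20.4 and 60.4 CPM, 2.96-fold apart (2.60 to 3.36), and ITGA7 at 7.55 and 37.4 CPM, 4.95-fold apart (4.11 to 5.98). ITGA6 went from 1.89 CPM in GDSS to 12.3 CPM in Yorkshire, 6.53-fold (4.56 to 9.46). CDH5 rested on few cells, with 8 UMIs in GDSS and 69 in Yorkshire, of which 43.5% were in 10 cells. ITGA9 (9.24 and 23.6 CPM) and ITGAM (6.88 and 15.8 CPM) were 2.55-fold and 2.30-fold apart. With other size factors ITGAM was no longer 2-fold apart. PCDH18 was the gene higher in GDSS, at 32.1 CPM against 15.7 CPM, 2.05-fold (1.69 to 2.51), and was not 2-fold apart with classes from clusters.

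**Figure D4:**
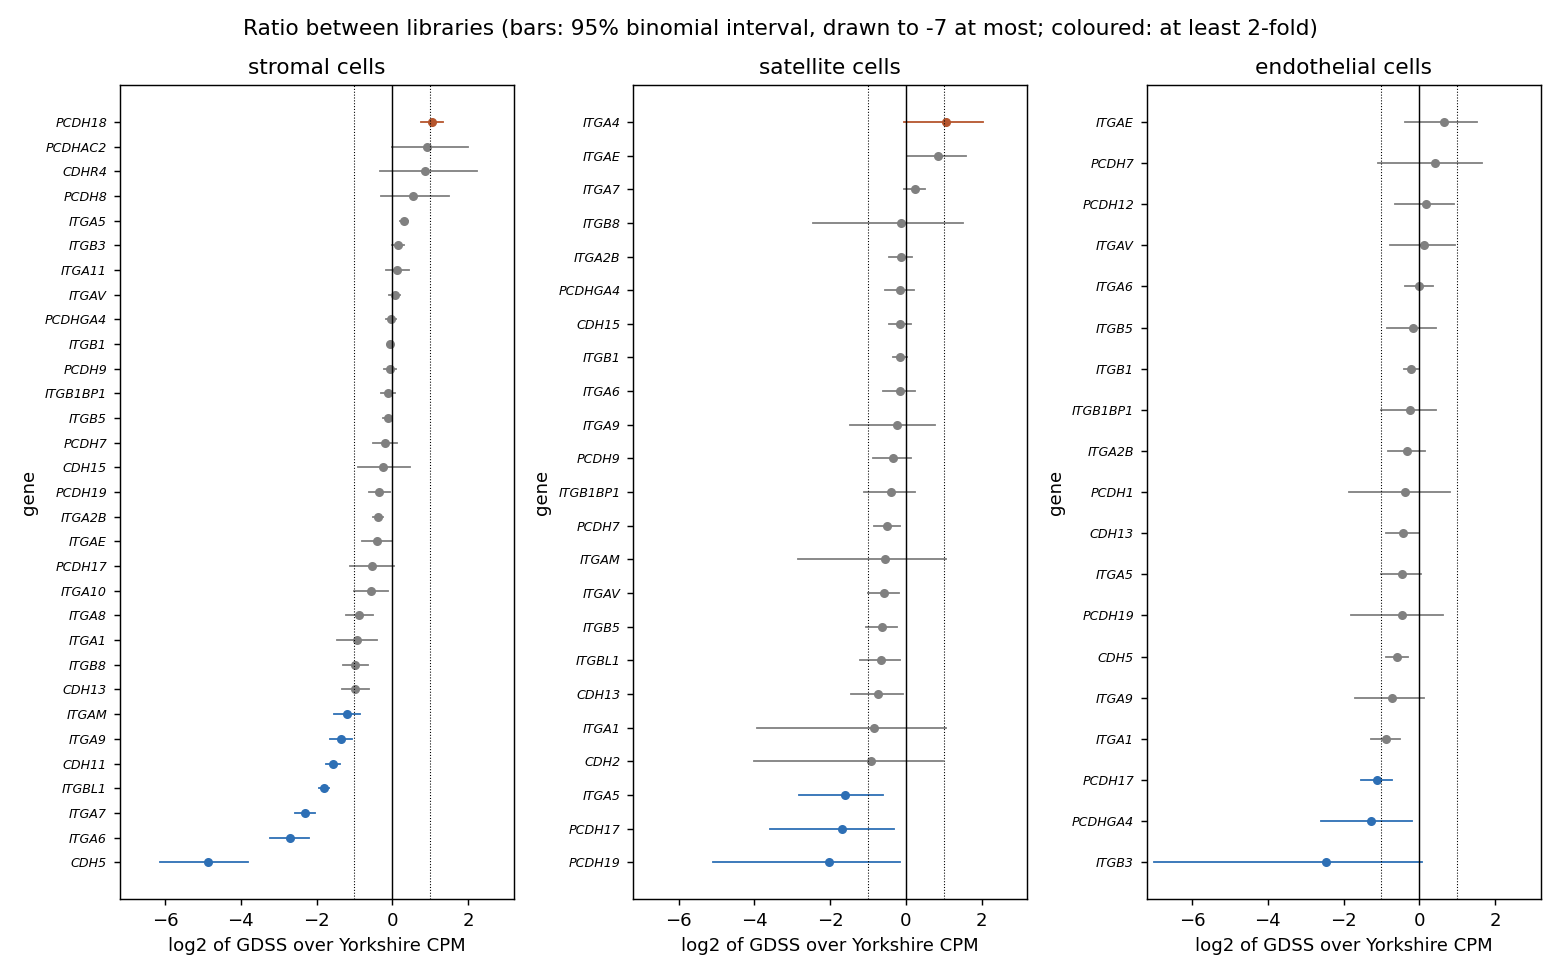
Log2 ratio of GDSS over Yorkshire CPM for every gene with at least 50 UMIs in stromal, satellite or endothelial cells, with 95% binomial intervals and dotted lines at 2-fold. In stromal cells 7 genes lie beyond 2-fold on the Yorkshire side, from ITGAM to CDH5, and PCDH18 on the GDSS side, while ITGB1, ITGAV and PCDHGA4 lie near 0.

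Markers of perineurial cells, which wrap nerve bundles, moved with this comparison. The 4 such markers in the files (CLDN1, KRT8, KRT18 and MPZL2) summed to 60.6 CPM in GDSS and 288 in Yorkshire stromal cells, and 13.2% and 16.2% of stromal cells held a UMI of them. In those cells CDH11 was at 33.0 CPM in GDSS and 221 in Yorkshire, 6.71-fold apart (5.43 to 8.33). In the 6602 and 1580 stromal cells without such a UMI it was at 18.3 and 21.6 CPM, 1.18-fold apart (0.96 to 1.44). ITGA6 behaved alike, at 4.29 and 53.0 CPM with a marker and at 1.47 and 2.50 CPM without, the latter 1.69-fold apart (0.85 to 3.22). The libraries also differed in the markers themselves. In stromal cells with CLDN1 the 4 markers summed to 418 CPM in GDSS, where 2 of them had a UMI. In Yorkshire they summed to 1556 CPM, and all 4 had a UMI. KRT8 had no UMI in GDSS stromal cells. Whether the marked cells are the same kind of cell in both libraries was not tested.

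ITGA7, ITGBL1, ITGA9 and ITGAM kept a difference of at least 2-fold without those cells. ITGA7 was then at 4.79 and 12.8 CPM, 2.67-fold apart (1.96 to 3.62), and ITGBL1 at 40.5 and 89.2 CPM, 2.20-fold apart (1.97 to 2.45). CDH5 had 0 UMIs in GDSS and 55 in Yorkshire cells with a marker. This was 47.1-fold with a floor of 3 counts in place of the 0, and the interval ran from 37.1-fold upward. In cells without a marker CDH5 had 8 and 14 UMIs and was still 6.32-fold higher in Yorkshire (2.47 to 17.4), below the minimum of 50 UMIs. PCDH18 was 1.88-fold higher in GDSS without the marked cells (1.52 to 2.34). In all, 5 of 28 genes were at least 2-fold apart there, against 7.79% of all genes. These were the 4 genes above and PCDHAC2, a clustered protocadherin whose counts are as uncertain as those of PCDHGA4, in a comparison added after the data had been seen.

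**Figure D5:**
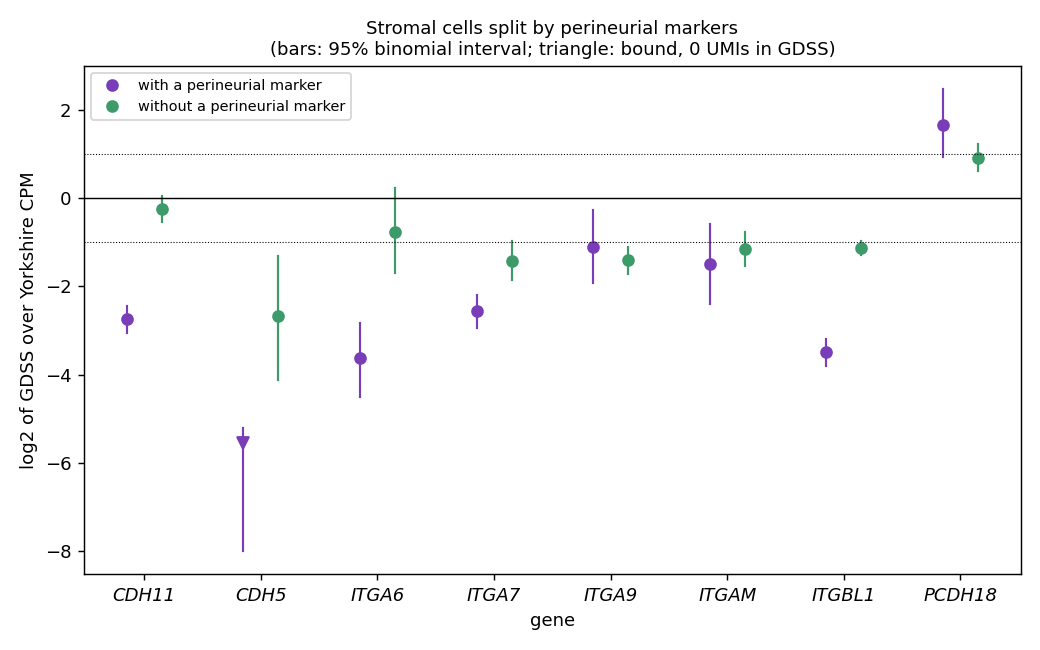
Log2 ratio of GDSS over Yorkshire CPM of the 8 stromal genes that were 2-fold apart, in stromal cells with and without a UMI of a perineurial marker, with 95% binomial intervals, dotted lines at 2-fold and a triangle for the bound of CDH5, whose interval has no lower end. Without the marked cells CDH11 (1.18-fold) and ITGA6 (1.69-fold) lie within the dotted lines, and ITGA9 and ITGAM lie beyond them in both kinds of cells.

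In satellite cells 4 of 23 genes were at least 2-fold apart, or 17.4%, against 14.5% of all genes. Yorkshire was higher for 3 of the 4 (9.40% of all genes) and GDSS for 1 (5.11%). ITGA5 was at 7.52 CPM in GDSS and 22.7 in Yorkshire, 3.02-fold apart (1.51 to 7.05), on 8 GDSS UMIs. PCDH17 and PCDH19 were higher in Yorkshire on 4 and 2 GDSS UMIs. ITGA4 was higher in GDSS at 9.40 CPM against 4.50 CPM, with an interval of the ratio from 0.96 to 4.08. The genes led by satellite cells differed less, CDH15 by 1.11-fold (0.91 to 1.36) and PCDH7 by 1.41-fold (1.12 to 1.79), both higher in Yorkshire.

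In endothelial cells 3 of 19 genes were at least 2-fold apart, or 15.8%, against 10.2% of all genes, and Yorkshire was higher for all 3 (7.49% of all genes), with 0 higher in GDSS (2.66%). PCDH17 was at 86.9 CPM in GDSS and 189.5 in Yorkshire, 2.18-fold apart (1.66 to 2.92). PCDHGA4 was at 11.3 and 27.1 CPM on 7 GDSS UMIs. ITGB3 had 1 UMI in GDSS and 57 in Yorkshire, with an interval of the ratio of GDSS over Yorkshire up to 1.05. CDH5, below the 2-fold limit, was 1.495-fold higher in Yorkshire (1.23 to 1.83).

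Glia differed between the libraries for 6 of 15 genes, or 40.0%, against 11.3% of all genes. CDH19 was the gene higher in GDSS (2.20% of all genes), 2.04-fold (1.71 to 2.43). Higher in Yorkshire were 5 genes (9.08% of all genes), CDH1 (3.86-fold, 1.88 to 8.94), CDH6 (2.72-fold, 1.42 to 5.64), ITGA6 (3.15-fold, 1.90 to 5.48), ITGA7 (2.63-fold, 1.54 to 4.69) and ITGB5 (6.13-fold, 3.28 to 12.7). The 11 glial markers in the files moved too, with a summed level of 12339 CPM in GDSS and 28802 in Yorkshire glia. The 2 clusters assigned to glia held different mixes, with 70 GDSS and 148 Yorkshire cells in the smaller and more GDSS than Yorkshire cells in the larger, and the part of this in the differences was not tested.

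In mural cells 2 of 17 genes were 2-fold apart, against 8.69% of all genes, both higher in Yorkshire (6.20%; 2.49% were higher in GDSS). ITGA8 was 5.06-fold higher in Yorkshire (3.05 to 8.99) and CDH6 2.33-fold (1.52 to 3.74). The smooth muscle myosin gene MYH11 had a UMI in 35.6% of GDSS and 61.7% of Yorkshire mural cells. ITGA8 was 3.85-fold higher in Yorkshire among cells with MYH11 (2.21 to 7.35) and 3.75-fold among those without (1.12 to 19.6, on 3 GDSS UMIs). CDH6 was 1.47-fold higher among cells with MYH11 (0.88 to 2.62) and 4.44-fold among those without (2.02 to 11.5).

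ITGA4 was higher in Yorkshire in both remaining classes. In macrophages it was 3.18-fold apart (1.77 to 5.825) as the only 1 of 9 genes, against 9.94% of all genes (5.95% higher in Yorkshire and 3.99% in GDSS). Of its 31 UMIs in Yorkshire macrophages, 90.3% were in 10 cells, and the T and NK markers of that class were also higher in Yorkshire (384 against 146 CPM); their part was not tested. In tenocytes it was 3.24-fold apart (2.01 to 5.37), beside ITGB8 at 2.73-fold (1.47 to 5.30), which made 2 of 18 genes against 6.24% (3.32% higher in Yorkshire and 2.92% in GDSS).

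CD9, the membrane protein named in the study's title, divided the stromal cells by 2 of 24 genes. A CD9 UMI was found in 13.3% of GDSS and 24.7% of Yorkshire stromal cells. CDH13 was at 19.8 CPM with CD9 and 4.43 CPM without in GDSS, and at 31.1 and 5.94 CPM in Yorkshire, 4.48-fold (3.31 to 6.06) and 5.23-fold (3.38 to 8.28). ITGBL1 was 3.70-fold (3.26 to 4.20) and 3.004-fold (2.65 to 3.41) higher with CD9. At least 2-fold higher in both libraries were 1.00% of all 8395 genes, and 0.774% were lower; no integrin or cadherin gene was lower. Cells with CD9 were deeper, with medians of 3921.5 against 2835 UMIs in GDSS and 4544.5 against 3187 in Yorkshire.

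The 11 tenocyte markers moved with CD9 too, at 578 against 249 CPM in GDSS and 802 against 367 CPM in Yorkshire stromal cells. Among stromal cells without a UMI of any of them, CDH13 was 4.47-fold higher with CD9 in GDSS (2.53 to 7.68) and 2.22-fold in Yorkshire (0.60 to 6.93). ITGBL1 was then 1.85-fold (1.34 to 2.52) and 1.93-fold (1.44 to 2.56) higher, below the 2-fold limit in both, in a split added after the data had been seen. The 4 perineurial markers summed to 562 CPM with CD9 and 158 CPM without in Yorkshire, but to 31.3 and 66.8 CPM in GDSS. Their part in the CD9 ratios was not tested.

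Other divisions of a class moved few of these genes. In stromal cells with CLDN1, ITGA7 was the only 1 of 24 genes at least 2-fold higher in both libraries, by 4.83-fold (3.59 to 6.48) in GDSS and 10.6-fold (8.13 to 13.8) in Yorkshire, against 1.55% of all genes, and 0 were lower, against 0.203%. CDH11 was 1.79-fold higher with CLDN1 in GDSS and 10.1-fold in Yorkshire. Stromal cells with PI16 or DPP4, which mark progenitor fibroblasts, were 2-fold higher or lower in 0 of 24 (0.858% and 0.238% of all genes). The nearest were ITGA11 at 1.84-fold and 1.91-fold and ITGA7 at 1.80-fold and 3.88-fold in GDSS and Yorkshire. The same count of 0 was found for stromal cells with FMO1 (0.0119% of all genes higher and 0.488% lower) and with THBS4 or KERA (0.417% and 0.0119%).

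In mural cells with MYH11, ITGAV was the only 1 of 5 genes that was higher, by 3.04-fold (1.63 to 5.97) in GDSS and 4.34-fold (2.96 to 6.56) in Yorkshire, against 4.05% of all genes, and 0 were lower, against 2.81%. In mural cells with RGS5 and without MYH11, which largely are the complement of the former, ITGAV was the only gene that was lower (3.38% of all genes), and 0 were higher (2.48%). The 9 genes compared in satellite cells gave a count of 0 for cells with MYOD1 (0.0832% higher and 0.00% lower among all genes) and for cells with PAX7 and without MYOD1 (0.0416% and 1.12%). CDH15 was 1.49-fold (0.98 to 2.23) and 1.10-fold (0.995 to 1.21) higher with MYOD1 in GDSS and Yorkshire.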

How the data were processed

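The deposited files held raw UMI counts per gene and barcode, which the authors made with Cell Ranger, as the submitters' processing notes say, in software 3.1.0 per the file headers. The genome build is not given in the sources used here. Cells needed at least 500 genes and at most 10% mitochondrial counts. Doublets with a score of at least 0.3 were taken out (540 and 1156 cells); the automatic threshold marked 0% and 2.92%, so the caller did not work in GDSS. A class needed 6 of 13 stromal, 2 of 12 satellite, 4 of 13 endothelial, 4 of 12 mural, 2 of 9 glial, 5 of 13 macrophage or 4 of 11 tenocyte markers, and tenocytes went before stromal cells. These thresholds, and dropping HEYL, ERBB3 and CNP, were set after the files were seen. Counts were summed per class and library (564068 to 25434307 UMIs). Intervals were exact Poisson for CPM and exact conditional binomial for ratios, and shares of thinned cells are cells with at least 1 UMI.

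The genes and lists were chosen with earlier results of these data known. Named were all genes with a leading class, all with at least 20 CPM in a class of at least 100 cells, and all 2-fold apart in stromal, satellite or endothelial cells. Of each list, some genes with a leading class were named, and these were not always the ones with the largest folds. The integrin partner PARVG, for instance, was led by macrophages by 20.1-fold in GDSS and 269-fold in Yorkshire and was not described. Python 3.11.15, scanpy 1.11.5 and edgeR 4.0.16 (normalization factors only) were used. The calling of leading classes and the intervals of ratios were checked on simulated counts. A division of glia by marker genes is not reported here.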

Additional observations from a re-analysis of the deposited data

How the results depend on the processing

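The count of genes with a leading class was 23 and ranged from 16 to 25 over the alternatives. A stricter gate ended the call of ITGA2B, ITGAL and PCDH10, and classes from clusters those of ITGA10 and PCDH8. At most 5% mitochondrial UMIs ended those of CDH1, CDH13, CDH24, ITGA3, ITGAL and ITGB7. Thinning and a minimum of 200 UMIs each ended those of CDH1, CDH24, ITGA3, ITGAL, ITGB7, PCDH8 and PCDH10. Of the other counts, those that moved by more than 1.5 times are given here. Genes 2-fold apart in stromal cells numbered 8, and 5 with cells thinned to 1500 UMIs, 14 at a fold of at least 1.5 and 5 without cells that hold a perineurial marker. In satellite cells they numbered 4, and 2 with thinning, 7 with at least 20 UMIs, 1 with at least 200 UMIs and 10 at a fold of 1.5. In endothelial cells they numbered 3, and 7 with classes from clusters made without these genes, 1 with at least 200 UMIs and 6 at a fold of 1.5. The cause was not tested, except that the limits on UMIs and fold change which genes count. Ratios between libraries were recomputed gene by gene only for the 23 genes with a leading class, in that class; there CDH19, CDH1 and ITGA8, the 2-fold calls, did not reverse. The sign turned in some setting for ITGA7, ITGA10, ITGAM and ITGB7, whose main log2 ratios were at most 0.21 in size; ITGB7 went to -1.70 and ITGA10 to -0.39 with at most 5% mitochondrial UMIs. With other size factors 9 stromal genes were apart, 7 of them shared. ITGAM was lost there, and CDHR4 and PCDHAC2 were gained. Classes from clusters ended the stromal call of PCDH18, and thinning those of CDH5, ITGA6 and PCDH18. No paired analysis was possible because each breed has 1 library. Depth limits GDSS glia, endothelial, mural and satellite cells and Yorkshire macrophages and glia most (564068 to 1063399 summed UMIs). Some satellite and endothelial genes rest on under 10 GDSS UMIs.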
